A study of Mus musculus with 6 samples.

Results

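Sox9, Afp, Spp1, Krt7, Krt19, Epcam, Cd24a, Krt8 and Krt18 are 9 genes used to mark bile duct cells, fetal liver cells or liver progenitors, chosen by gene symbol. All 9 were found among the 17275 genes of the deposited read table. The libraries come from hepatocytes of adult C57BL/6 mice, all of the genotype Axin2rtTA;TetO-H2B-GFP and all given doxycycline in the drinking water for 7 days. In this genotype the Axin2 promoter drives the doxycycline-dependent activator, which switches on a histone-fused green fluorescent protein, so fluorescence reports Axin2 promoter activity over the doxycycline period and not the Axin2 mRNA at harvest. The age is given as 8 weeks in one label and as postnatal day 63 in another. After non-parenchymal cells were taken out, the cells were split by flow sorting on their fluorescence into an Axin2-positive and an Axin2-negative fraction. Each fraction has 3 libraries, here called positive and negative 1, 2 and 3, where a number stands for a sequencing index that 1 library of each fraction carries. The labels do not give the number of mice, so p-values measure the spread between these libraries.

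Sox9 encodes a transcription factor of bile duct cells that is also made at a low level by some hepatocytes next to the portal vein. Spp1 encodes osteopontin, a secreted glycoprotein of bile duct cells that macrophages and stellate cells can make as well. Afp encodes alpha-fetoprotein, the fetal relative of albumin, which is largely silenced after birth. Krt8 and Krt18 encode the partner keratins of the hepatocyte filament network, and Krt7 and Krt19 encode the keratins that bile duct cells add to it. Epcam (an adhesion protein) and Cd24a (a small anchored surface glycoprotein) are surface markers used to isolate duct and progenitor cells, and Cd24a is also found on blood cells. Axin2 is a target and a negative regulator of Wnt/β-catenin signalling, which is known to be active in hepatocytes next to the central vein.

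The 6 libraries held 75882611 to 103386648 reads assigned to genes, and the mean totals of the fractions differed by less than their spread (p = 1 by a two-sided exact permutation test with 3 libraries a side, where 0.1 is the smallest possible). Levels are given as CPM, counts scaled by the library total and its TMM factor. Axin2 stood at 2.40, 22.6 and 24.2 CPM in the libraries labelled positive 1, 2 and 3, against 3.04, 3.75 and 5.75 CPM in negative 1, 2 and 3. In Axin2 mRNA the library labelled positive 1 was thus not above its partner, negative 1. The comparisons of Sox9, Spp1, Afp, Krt8 and Krt18 are therefore also given without positive 1 or without its pair. Within replicate 1, 0.275% of 12343 tested genes were over 2-fold higher and 0.47% over 2-fold lower in the library labelled positive. These shares were 3.41% and 6.51% in replicate 2 and 2.41% and 4.99% in replicate 3. Both libraries of replicate 2 were male by Ddx3y, a gene of the Y chromosome (7164 and 6759 reads), and Xist (4 and 5 reads). Replicates 1 and 3 held 0 to 3 reads of Ddx3y and 32242 to 52151 of Xist, so they were female, and sex cannot be told apart from the other differences between replicate numbers. The 6 hepatocyte markers Alb, Apoa1, Ttr, Serpina1a, Cyp2e1 and Hnf4a summed to between 80932 and 176612 CPM.

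Upstream sequence was matched by symbol in RefSeq (GRCm38.p6) for 6 of the 9 genes, and not for Sox9, Krt19 and Cd24a. Spp1 and Afp lie on the same chromosome, and their within-pair ratios differed in replicates 2 and 3, a difference that was not tested. The 250 bases before the first RefSeq start are shown for these genes. Both are written 5′ to 3′ on the plus strand, with motif matches in capitals.
Spp1, chr5:104434861-104435110, plus strand: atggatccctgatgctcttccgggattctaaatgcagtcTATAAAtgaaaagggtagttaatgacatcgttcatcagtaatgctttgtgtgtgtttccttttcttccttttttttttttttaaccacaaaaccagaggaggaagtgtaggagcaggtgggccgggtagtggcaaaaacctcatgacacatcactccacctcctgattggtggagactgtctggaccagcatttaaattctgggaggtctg
Afp, chr5:90490464-90490713, plus strand: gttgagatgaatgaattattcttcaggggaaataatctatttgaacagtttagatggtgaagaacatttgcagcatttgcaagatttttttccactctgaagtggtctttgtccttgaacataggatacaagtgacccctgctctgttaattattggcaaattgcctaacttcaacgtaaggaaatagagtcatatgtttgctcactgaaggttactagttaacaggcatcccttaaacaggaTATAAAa
Searched on both strands were AACAAT (a core bound by SOX factors), CTTTGAT (TCF/LEF), TGGGAA (RBPJ, the Notch effector), GGAATG (TEAD) and TATAAA. Each of these windows held 1 TATAAA and no other of the 5 motifs, and the window before the second RefSeq start of Spp1 held none. In Spp1 the TATAAA lay 211 to 206 bases before the RefSeq start, which is 7 bases upstream of the GENCODE gene start given below. In Afp it lay 7 to 2 bases before the RefSeq start, which is 23 bases upstream of the GENCODE start, so 30 to 25 bases before the latter. TATAAA occurred in 12.4% of the 32851 upstream windows of this length, TGGGAA in 21.6%, GGAATG in 12.6%, AACAAT in 9.42% and CTTTGAT in 3.21%.

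The 9 genes fell into 3 ranges of level. Krt8 and Krt18 were abundant in every library, Sox9, Spp1 and Afp were low, and Krt7, Krt19, Epcam and Cd24a were at or near 0. Per kilobase of transcript, Krt18 stood at 202 ± 59.0 CPM in the libraries labelled positive and 164 ± 22.9 CPM in the others, and Krt8 at 164 ± 40.0 and 147 ± 16.7 CPM (SD, n = 3 each). Afp followed with 1.29 ± 1.201 and 1.21 ± 0.936, Spp1 with 0.801 ± 1.25 and 1.51 ± 0.586, and Sox9 with 0.638 ± 1.08 and 0.876 ± 0.979 CPM per kilobase. The order is that of the libraries labelled positive. There, neighbours within each of the upper 2 ranges differed by less than their spread between libraries. In the Axin2-negative libraries the mean of Spp1 was above that of Afp, by less than either SD. In negative 1 Afp was the higher (2.29 against 2.19). The mean of Spp1 was also above that of Sox9, by more than the SD of Spp1 and less than that of Sox9. The 3 low means of the libraries labelled positive rest on positive 1. In positive 2 and 3 alone Afp stood at 0.688 and 0.519, Spp1 at 0.0719 and 0.0907 and Sox9 at 0.0153 and 0.0112 CPM per kilobase, and there the 3 genes did not overlap.

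**Figure D1:**
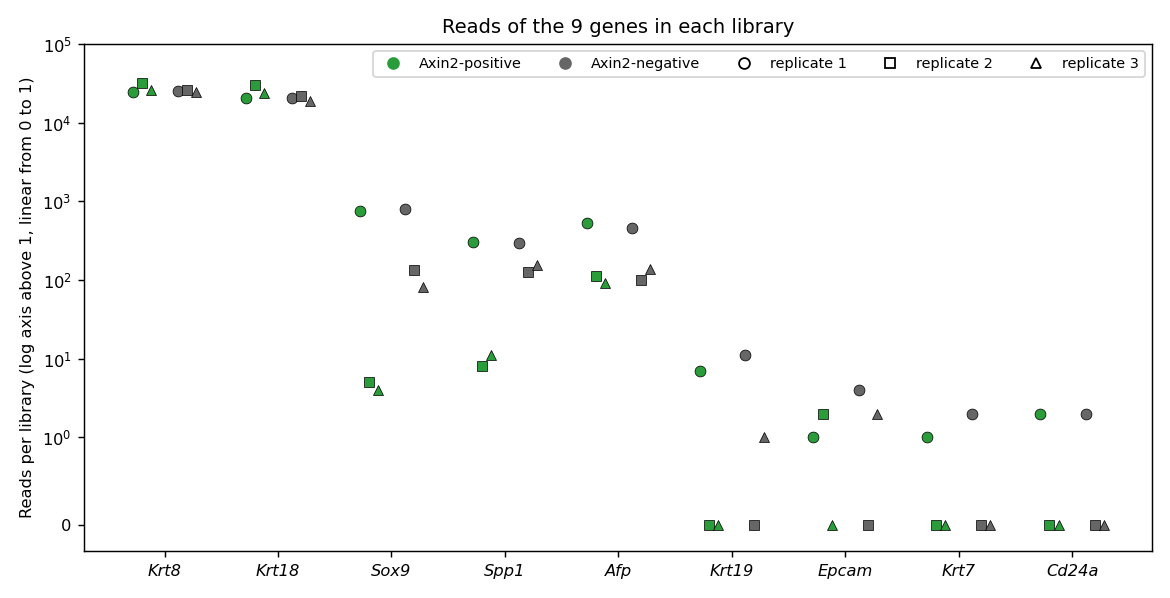
Reads of each gene in each library (vertical axis, reads, logarithmic above 1), with the libraries labelled positive in green, Axin2-negative in grey and the replicate number as the symbol. Sox9 and Spp1 stand at 4 to 11 reads in the libraries labelled positive 2 and 3 and at 81 or more reads in the other 4.

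Sox9 (ENSMUSG00000000567.5, chromosome 11, 112782224 to 112787760, plus strand, GRCm38) was nearly missing from the libraries labelled positive 2 and 3. It had 758, 5 and 4 reads in the libraries labelled positive 1, 2 and 3, against 792, 134 and 81 reads in negative 1, 2 and 3. In CPM these were 7.80, 0.0633 and 0.0465 against 8.28, 1.67 and 0.923. Both libraries of replicate 1 were high and close to each other, the Axin2-negative libraries 2 and 3 were lower, and the groups overlapped through the library labelled positive 1. Sox9 was 26.3-fold lower in the library labelled positive than in its partner in replicate 2 (95% Clopper-Pearson counting interval 11.004 to 82.4) and 19.9-fold lower in replicate 3 (7.46 to 74.6). The ratio in replicate 1 was 0.942 (0.852 to 1.04). These intervals cover counting error only. Of the 12343 tested genes, 45 had a lower log2 difference than Sox9 in replicate 2 and 31 in replicate 3.

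Spp1 (ENSMUSG00000029304.14, chromosome 5, 104435118 to 104441050, plus strand) was low in the same libraries as Sox9. Its reads were 307, 8 and 11 in the libraries labelled positive 1, 2 and 3, against 295, 126 and 154 in negative 1, 2 and 3, or 3.16, 0.101 and 0.128 CPM against 3.08, 1.57 and 1.76 CPM. The libraries labelled positive 2 and 3 were low, the other 4 were high, and the groups overlapped through the library labelled positive 1. Spp1 was 15.5-fold lower in replicate 2 (7.61 to 36.6) and 13.7-fold lower in replicate 3 (7.46 to 28.1), with a ratio of 1.02 (0.870 to 1.21) in replicate 1. Of the tested genes, 76 lay below it in replicate 2 and 30 in replicate 3.

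**Figure D2:**
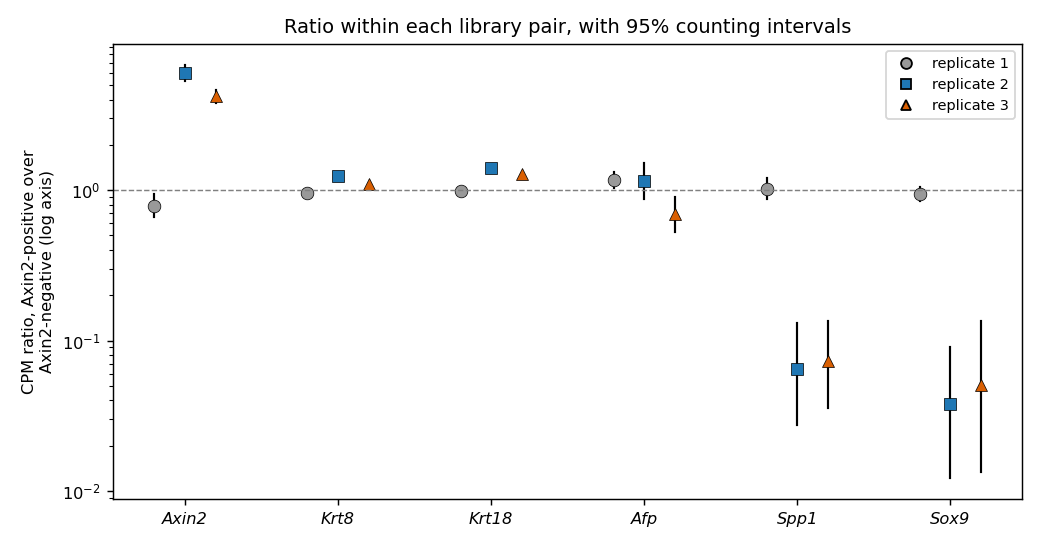
Ratio of CPM between the library labelled positive and the Axin2-negative library of the same replicate (logarithmic axis), with 95% counting intervals as bars and 1 symbol per replicate. Sox9 and Spp1 lie far below 1 in replicates 2 and 3 and near 1 in replicate 1, while Axin2 lies above 1 in replicates 2 and 3.

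Neither gene passed edgeR's quasi-likelihood test when the 6 libraries were fitted together. The log2 fold change, Axin2-positive over Axin2-negative, was -0.46 (SE 1.85, adjusted p = 0.999) for Sox9 and -0.91 (SE 1.30, adjusted p = 0.999) for Spp1. In that fit 0% of the 12343 tested genes were called in either direction, and 2.26% had an unadjusted p under 0.05, none of the 5 tested genes of interest among them. DESeq2 and limma-voom also called 0 genes in either direction, and DESeq2 gave Spp1 no p. With the replicate number as a block, the estimates were -2.32 (SE 1.003, edgeR adjusted p = 0.450) for Sox9 and -2.31 (SE 0.94, edgeR adjusted p = 0.450) for Spp1. Without the library labelled positive 1 they were -6.01 (edgeR adjusted p = 0.240) and -4.20 (edgeR adjusted p = 0.121).

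Leaving out both libraries of replicate 1 and blocking on the replicate number gave -4.50 (SE 0.44) for Sox9 and -3.84 (SE 0.36) for Spp1. Both were called lower there (edgeR adjusted p = 0.00959 and 0.00879), in a fit that called 4.01% of 12385 genes lower and 3.43% higher, and also when tested against a fold of 1.5 (edgeR adjusted p = 0.0164 and 0.0144). The test against a fold called 0.888% of genes lower and 0.791% higher, and 2 of the 5 tested genes of interest lower and 0 higher. Replicate 1 was left out because it was known to show little difference, so these calls do not count as independent support. Leaving out replicate 2 or replicate 3 instead gave -1.29 and -1.74 for Sox9 and -1.51 and -1.62 for Spp1, with no call.

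**Figure D3:**
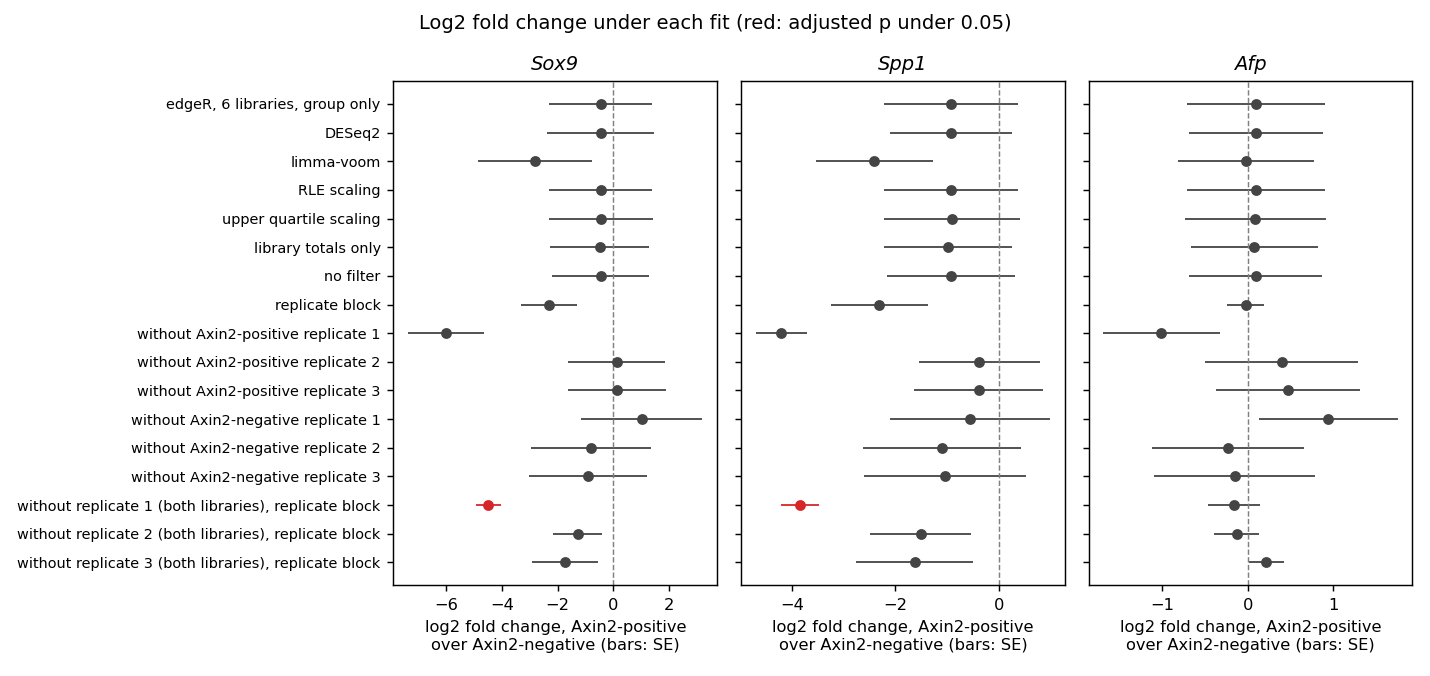
Log2 fold change of Sox9, Spp1 and Afp (horizontal axes) under each fit (rows), with the standard error as bars and fits with an adjusted p under 0.05 in red. Spp1 lies below 0 in every fit shown, Sox9 lies above 0 in 3 fits that leave out 1 library, and only the fit without both libraries of replicate 1 is red, for Sox9 and Spp1.

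Markers of other liver cells also differed within the pairs of replicates 2 and 3. The 12 Kupffer cell markers, all in the table, summed to 4.11, 1.28 and 5.28 CPM in the libraries labelled positive 1, 2 and 3, against 4.30, 5.28 and 30.2 CPM in negative 1, 2 and 3. Marco, C1qb and Fcgr1 had 0 reads in the library labelled positive 2. Fcgr1 also had 0 reads in both libraries of replicate 1. Marco had 1 read in each of the libraries labelled positive 1 and 3 and in negative 1. The 12 endothelial markers, all in the table, summed to 78.9, 2.33 and 80.3 CPM against 76.1, 7.34 and 117 CPM, and the 10 stellate cell markers, also all in the table, to 6.71, 0.671 and 7.00 CPM against 6.77, 1.49 and 9.05 CPM. All 3 sums were lower in the library labelled positive in replicates 2 and 3, as Sox9 and Spp1 were. The part of these cells in the within-pair differences was not tested. In bulk libraries, fewer cells of a type and less RNA per cell cannot be told apart.

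The 4 other duct and progenitor markers were counted in single reads. Krt19 (chromosome 11, 100140810 to 100148665) had 7, 0 and 0 reads in the libraries labelled positive 1, 2 and 3, against 11, 0 and 1 in negative 1, 2 and 3. Epcam (chromosome 17, 87635979 to 87651129) had 1, 2 and 0 reads against 4, 0 and 2. Krt7 (chromosome 15, 101411043 to 101430313) had 1, 0 and 0 against 2, 0 and 0, and Cd24a (chromosome 10, 43578284 to 43584265) had 2, 0 and 0 against 2, 0 and 0. A count of 0 allows up to 3 reads, which is 0.0309 to 0.0380 CPM in these libraries. None of the 4 passed the filter on low counts, and no difference between the groups was detectable at this depth. Together they had 11, 2 and 0 reads in the libraries labelled positive and 19, 0 and 3 in the others, so both replicate 1 libraries held the most.

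Of other bile duct markers, Cftr, Cldn7, Sctr and Anxa13 together had 7, 0 and 0 reads in the libraries labelled positive and 7, 3 and 1 in the others. Of the 9 genes, Sox9 and Spp1 were thus the bile duct markers that could be compared here, while the keratin and surface markers of ducts were at or near 0.

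Afp (ENSMUSG00000054932.6, chromosome 5, 90490737 to 90508907, plus strand) was detected in every library and followed the replicate number. It had 537, 112 and 92 reads in the libraries labelled positive 1, 2 and 3 and 452, 99 and 136 in negative 1, 2 and 3, or 5.53, 1.42 and 1.07 CPM against 4.72, 1.23 and 1.55 CPM. Both libraries of replicate 1 were high, the other 4 were low, and the groups overlapped. Within pairs the ratio was 1.17 (1.03 to 1.33) in replicate 1, 1.15 (0.871 to 1.53) in replicate 2 and 0.690 (0.524 to 0.906) in replicate 3. The log2 fold change was 0.095 (SE 0.81, edgeR adjusted p = 0.999) over 6 libraries and -0.026 (SE 0.22, edgeR adjusted p = 0.960) with the replicate block. It was -1.01 without the library labelled positive 1 and -0.17 (SE 0.30) without both libraries of replicate 1, and none of these passed the test. Unlike Sox9 and Spp1, Afp was under 2-fold different in all 3 pairs.

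In the Axin2-negative libraries alone, replicate 1 exceeded replicates 2 and 3 by 4.96-fold and 8.96-fold for Sox9, 3.83-fold and 3.05-fold for Afp and 1.97-fold and 1.76-fold for Spp1. In the libraries labelled positive these ratios were 123 and 168 for Sox9, 31.2 and 24.7 for Spp1, and 3.89 and 5.16 for Afp. The ratios of Afp lay between 3.05 and 5.16 in both groups, while those of Sox9 and Spp1 were far larger in the libraries labelled positive. With 1 library per replicate number in each group, this difference was not tested.

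**Figure D4:**
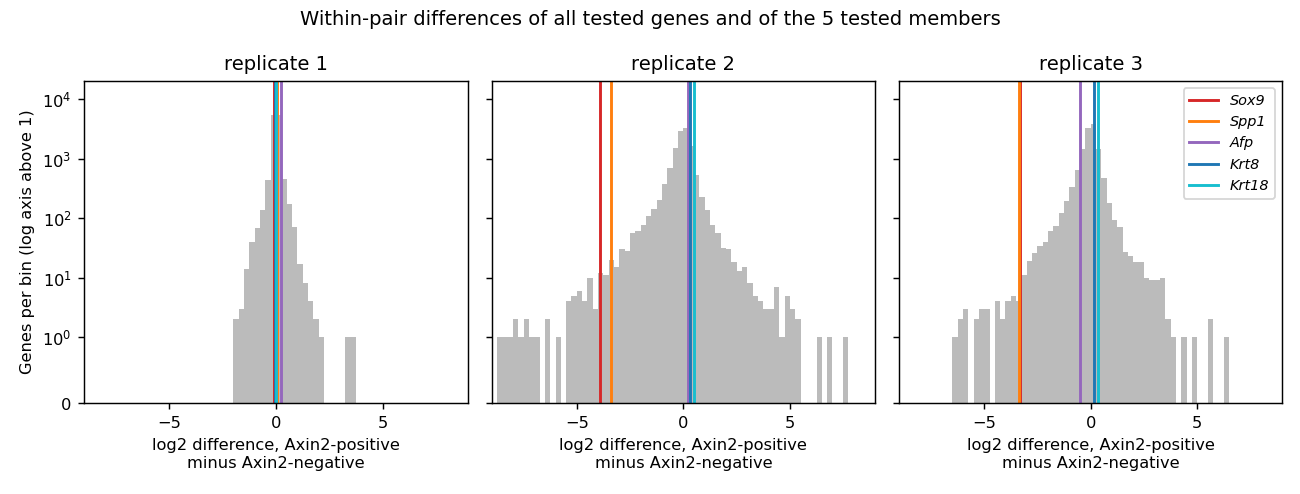
Number of tested genes (vertical axis, logarithmic above 1) by log2 difference within each library pair (horizontal axis), with vertical lines for the 5 tested genes of interest. In replicate 1 all 5 lines lie within 0.224 of 0, and in replicates 2 and 3 Sox9 and Spp1 lie in the lower tail at -3.33 or below.

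Krt8 (ENSMUSG00000049382.10, chromosome 15, 101996698 to 102004482, minus strand) and Krt18 (ENSMUSG00000023043.7, chromosome 15, 102028180 to 102032027, plus strand) had larger values in the libraries labelled positive 2 and 3 than in their partners, by ratios of 1.10 to 1.39. Krt8 stood at 253, 407 and 306 CPM in the libraries labelled positive 1, 2 and 3, against 262, 325 and 279 CPM in negative 1, 2 and 3. Krt18 stood at 213, 381 and 277 CPM against 215, 273 and 217 CPM. For both genes replicate 2 was the highest library of its group, and the groups overlapped. Within pairs the ratio of Krt8 was 0.963, 1.25 and 1.10 in replicates 1, 2 and 3, and that of Krt18 was 0.990, 1.39 and 1.28.

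Neither keratin passed the test over 6 libraries. Their estimated log2 fold change was 0.16 (SE 0.21, edgeR adjusted p = 0.999) for Krt8 and 0.30 (SE 0.24, edgeR adjusted p = 0.999) for Krt18. Without both libraries of replicate 1 it was 0.23 (SE 0.11) and 0.42 (SE 0.11), with edgeR adjusted p = 0.258 and 0.0834. It was -0.049 for Krt8 and 0.059 for Krt18 without the library labelled positive 2. Per kilobase, the level of Krt8 was 0.872, 0.784 and 0.809 times that of Krt18 in the libraries labelled positive and 0.896, 0.874 and 0.941 times in the others. These ratios did not overlap between the groups, although the nearest values were 0.872 (labelled positive 1) and 0.874 (negative 2). The means were 0.822 ± 0.0454 and 0.904 ± 0.0343 (SD of 3 libraries). A two-sided exact permutation test gave p = 0.1, the smallest possible for it. That test took the 6 libraries as unpaired, although the index was taken to pair them. The ratio was chosen after seeing the data, and the share of other gene ratios that part the groups was not counted. Without replicate 1 the nearest values were 0.809 and 0.874, with 2 libraries in each group and no test. A processed pseudogene of Krt8 is annotated, and whether reads that fit both copies were split was not tested.

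In the authors' deposited table, Cuffdiff listed Sox9 at 0.895 FPKM in Axin2-positive and 0.992 in Axin2-negative (q = 0.9995), and the main Spp1 transcript at 0.833 and 1.07 FPKM (q = 0.9995). That table gave Krt8 168.5 and 149 FPKM and Krt18 178 and 143 FPKM, both also at q = 0.9995. Axin2 stood there at 4.52 FPKM in Axin2-positive and 1.16 in Axin2-negative (Cuffdiff q = 0.00961). Each such value joins the 3 libraries of a group, so the high library labelled positive 1 and the low libraries 2 and 3 cannot be seen apart there.

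Other biliary genes, from a list of 24, were in the table for 23, and 9 passed the filter. Of these 9, edgeR called 0 over 6 libraries, 0 had an unadjusted p under 0.05, and the median log2 fold change was -0.23 beside -0.0047 for all tested genes. The medians within replicates 1, 2 and 3 were 0.0032, 0.090 and -0.35. Of the 9, 2 were over 2-fold lower in replicate 2 and 2 in replicate 3 (6.51% and 4.99% of all tested genes), and none was in both (2.97%). Without replicate 1, edgeR's test against a fold of 1.5 called 0 of the 8 then tested. The highest in CPM was Onecut2, a transcription factor, at 113, 115 and 149 CPM against 112, 108 and 115 CPM. Aqp1, a water channel that endothelial cells make as well, was at 13.4, 0.101 and 15.8 CPM against 13.6, 0.859 and 23.4 CPM. Aqp1 was low in both libraries of replicate 2, as the endothelial markers were.

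Of 11 known regulators of Sox9 and of biliary fate, 10 were tested, edgeR called 0, 0 had an unadjusted p under 0.05, and the median was -0.090. Within replicates 1, 2 and 3 it was -0.026, -0.19 and 0.015, and without replicate 1 the test against a fold of 1.5 called 0 of the 10. Yap1, a Hippo pathway coactivator, was at 67.6, 77.1 and 77.9 CPM against 68.4, 76.001 and 71.6 CPM, with no library apart. The receptor gene Notch2 was at 71.3, 41.1 and 63.9 CPM against 73.0, 58.2 and 62.6 CPM. Onecut1 differed between replicate numbers, at 41.1, 48.2 and 17.5 CPM against 45.8, 80.4 and 12.9 CPM.

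Of 18 other fetal and progenitor genes, 17 were in the table and 8 were tested, with edgeR calling 0, none at an unadjusted p under 0.05, and a median of 0.27. The medians within replicates 1, 2 and 3 were -0.012, 0.63 and -0.026. The imprinted gene Peg3 was at 8.89, 8.35 and 14.3 CPM against 8.64, 3.63 and 4.86 CPM. It was higher in replicates 2 and 3 by 1.19 and 1.55 on the log2 scale, and without replicate 1 it was called higher against a fold of 1.5 (log2 fold change 1.39, SE 0.15, edgeR adjusted p = 0.0437). Peg10, another imprinted gene, had 37, 2 and 4 reads against 44, 28 and 26 reads and was not called (edgeR adjusted p = 0.178 in that fit). Mest, imprinted as well, was at 2.85, 2.52 and 2.90 CPM against 2.65, 2.003 and 2.11 CPM, with little spread.

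Albumin and its relatives followed the replicate number in the way that Afp did only in part. Alb was at 156336, 68538 and 94022 CPM against 154432, 60076 and 124274 CPM, highest in replicate 1 and lowest in replicate 2. Afm gave 660, 277 and 363 CPM against 645, 234 and 459 CPM, and Gc gave 8854, 6037 and 6059 CPM against 8712, 6615 and 7175 CPM. None of the 3 was past 2-fold in any pair. Of the 11 known regulators of Afp, all tested, edgeR called 0, 1 had an unadjusted p under 0.05, and the median was -0.091. Without replicate 1, 0 of the 11 were called against a fold of 1.5, and the medians within replicates 1, 2 and 3 were -0.035, -0.25 and -0.011. Among them Hnf4a was at 604, 537 and 624 CPM against 608, 652 and 709 CPM, Cebpa at 303, 273 and 351 CPM against 311, 372 and 447 CPM, and Nr5a2 at 63.6, 73.2 and 92.5 CPM against 65.2, 70.4 and 90.04 CPM.

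Among 12 keratin partners and other keratins, 8 were tested, edgeR called 0, 0 had an unadjusted p under 0.05, and the median was -0.11. Within replicates 1, 2 and 3 the medians were -0.043, -0.15 and 0.051, and none of the 8 was called against a fold of 1.5 without replicate 1. Dsp, which encodes the desmosomal anchor of keratin filaments, was at 123, 129 and 101 CPM against 128, 85.5 and 78.0 CPM, higher within replicates 2 and 3 by 0.59 and 0.38 on the log2 scale. Dsg2 was at 217, 187 and 233 CPM against 215, 168 and 228 CPM, and Dsc2 at 89.0, 50.4 and 56.4 CPM against 85.0, 49.9 and 75.8 CPM.

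Hepatocyte zonation genes give the scale of the differences in which Sox9 and Spp1 stood. Of 15 periportal genes, 9 were over 2-fold lower in both replicates 2 and 3, where 2.97% of all tested genes were, and the list medians were -0.0084, -3.78 and -2.35 in replicates 1, 2 and 3. The same medians were 0.00039, -0.0069 and -0.0030 over all tested genes. Of 12 pericentral genes, 11 were over 2-fold higher in both replicates 2 and 3, where 1.33% of all tested genes were. Sox9 (-0.085, -3.92 and -3.33) and Spp1 (0.034, -3.42 and -3.34) can be set beside these values. In replicate 2 Sox9 was below and Spp1 above the periportal median, and in replicate 3 both were below it. The 0.05 CPM added to the 0.101 CPM of Spp1 in the library labelled positive 2 shrinks its difference. The order of Spp1 and the median in replicate 2 is therefore not settled. The zonation lists and the 9 genes were read from the same library pairs, so their shared direction is a description of these pairs.

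The pattern of each tested gene over the 6 libraries was compared with that of all 12338 other tested genes by Pearson's r on log2(CPM + 0.5), given with no p because 6 libraries from 3 shared indices lie behind it. Closest to Spp1 were Wfdc2 (r = 0.999), Ceacam1 (0.998) and Farp1 (0.995). Wfdc2, a secreted protease inhibitor family gene of epithelia, stood at 5.33, 0 and 0.0698 CPM against 5.43, 1.98 and 2.30 CPM. Ceacam1, from 166 to 262 CPM, and Farp1, from 15.6 to 31.1 CPM, differed far less than Spp1. Closest to Sox9 were Stat5b (0.998), Ppapdc1b (0.997) and 2700062C07Rik (0.997), also with far smaller differences than Sox9. Stat5b, for instance, ranged from 72.7 to 114 CPM. Closest to Afp were 1700048O20Rik (0.997), E2f7 (0.995) and Elovl6 (0.994), closest to Krt8 were Mapre3, Ubap1 and Arpc3 (0.997 to 0.998), and closest to Krt18 were Rad23b, Mrto4 and Hsd17b4 (0.996 to 0.997). Among the genes of interest themselves r was 0.98 between Krt8 and Krt18, 0.94 between Sox9 and Spp1, 0.90 between Sox9 and Afp and 0.76 between Afp and Spp1. The 6 pairs of a keratin with Sox9, Spp1 or Afp had negative r, from -0.86 (Spp1 and Krt18) to -0.63 (Afp and Krt18).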

How the data were processed

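For 6 libraries the authors deposited raw counts of reads by gene symbol. The submitters' processing notes name TopHat2 2.0.11 and the mm10 build. A further deposited table holds 1 FPKM value per transcript and fraction with p-values and q-values, in the layout of Cuffdiff, which the same notes name as version 2.2.2. The kit was a stranded mRNA kit, per the labels' protocols. How reads were assigned to genes, and whether strand was used, is not given in the sources used here. Columns were matched to samples by the index in their names.

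The test, checked on simulated data, was the quasi-likelihood F test of edgeR 4.0.16 (R 4.3.3) with the fraction as its single term, after filterByExpr with its defaults and TMM. The simulated counts held no differences between replicate numbers, so that check does not cover the spread between these libraries. P-values were adjusted by Benjamini-Hochberg over 12343 genes and called under 0.05. SEs are the log2 fold change divided by the square root of F. Alternatives were DESeq2 1.42.0, limma-voom (limma 3.58.1), other scalings, no filter, a threshold of 0.01, the replicate block, and leaving out libraries or pairs. Libraries with a shared index deviated together from their group means (r = 0.70, 0.83 and 0.75, each over 0.1), so the index was taken to pair them. For log2 differences of paired libraries 0.05 CPM was added to both values. The keratin ratio, the ratios across replicates and the motif search were chosen after seeing the data. Intervals of within-pair ratios are exact binomial (Clopper-Pearson, 95%). Transcript lengths and coordinates are from GENCODE M21 (GRCm38).

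The 9 genes, the lists and the tests were chosen with earlier results of these data known. Named genes were the 9, Axin2, the 3 most abundant members of each list, members past 2-fold in the same direction in 2 or more pairs (those of the zonation lists are given as counts and medians), and the 3 tested genes closest to each tested gene of interest. Some results are not reported here. Markers of lymphocytes (0.0249 to 0.502 CPM summed), neutrophils (0.0209 to 0.160), mesothelial cells (0 to 0.0228) and erythroid cells (18.4 to 202, high in both libraries of replicate 2) were also summed.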

Additional observations from a re-analysis of the deposited data

How the results depend on the processing

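Over 6 libraries edgeR called 0 genes higher and 0 lower. Leaving out single libraries gave 0 to 1 higher and 0 to 5 lower calls. Leaving out both libraries of a replicate number, with the replicate block, gave 0 to 425 higher and 0 to 497 lower, and 98 and 110 when tested against a fold of 1.5 without replicate 1. Of the 9 genes, 0 to 2 were called when libraries or pairs were left out, with the 2 (Sox9 and Spp1) called only without both libraries of replicate 1. The replicate block with all 6 libraries changed no call, and neither did DESeq2, limma-voom, other scalings, no filter or a threshold of 0.01.

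The log2 fold change of Spp1 was below 0 and that of Krt18 above 0 in all 18 fits. That of Sox9 turned to 0.11 without the library labelled positive 2, 0.12 without positive 3 and 1.03 without negative 1, and its range over fits without single libraries was -6.01 to 1.03. It was -2.81 with limma-voom. That of Krt8 turned to -0.049 without the library labelled positive 2 and reached 0.30 without positive 1. That of Afp turned below 0 with limma-voom (-0.019), the replicate block (-0.026), without positive 1 as labelled (-1.01), without negative 2 (-0.23), without negative 3 (-0.15), without both libraries of replicate 1 (-0.17) and without both of replicate 2 (-0.13), and reached 0.94 without negative 1. The cause was not tested. Counts of the 5 tested genes of interest past 2-fold within a pair were the same with offsets of 0.5 and 0.01 CPM, folds of 1.5 and 4, and library totals alone. Krt7, Krt19, Epcam and Cd24a lie too low for any comparison at this depth.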

Other observations

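Scd2, a desaturase gene in the list of fetal and progenitor genes, did not follow the pairs. It stood at 12.3, 13.5 and 2.31 CPM in the libraries labelled positive 1, 2 and 3, against 1.24, 0.423 and 7.19 CPM in negative 1, 2 and 3. The log2 difference was 3.26 in replicate 1, where 34 of 12343 tested genes were over 2-fold higher, then 4.84 in replicate 2 and -1.62 in replicate 3. It was not called over 6 libraries (log2 fold change 1.67, SE 1.13, edgeR adjusted p = 0.999).

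The 2 deposited tables differ for Afp more than for the other genes of interest. From the read counts Afp stood at a mean of 1.25 CPM per kilobase over the 6 libraries, and in the authors' deposited table at 0.302 FPKM in Axin2-positive and 0.315 FPKM in Axin2-negative. The ratio of the count-based level to the mean FPKM was 4.06, above that of 99.4% of 12094 genes, whose median was 0.939. It was 0.802 for Sox9, 1.03 for Spp1, 0.982 for Krt8 and 1.14 for Krt18. The cause was not tested.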
